A study of Sus scrofa with 16 samples.

Results

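Genes that mark macrophages, monocytes, dendritic cells and neutrophils were followed in the left ventricle of young pigs after cardiac ischemia/reperfusion (IR). The list holds 50 genes picked by name for what they are known to do, in 7 role groups. It was drawn up with earlier results of these data known. Of the 50 genes, 47 have a line among the 22629 genes of the deposited tables. ITGAX, CYBB and CLEC9A have no line under those symbols. RNA came from White Yorkshire-Landrace farm pigs operated on at about a month of age, with 4 IR pigs whose left anterior descending artery was closed for 1 h and then reopened, and 4 sham pigs that had the surgery without the closure. Hearts were taken 4 weeks later, and each pig gave a scar zone and a border zone sample, so 16 samples from 8 pigs form 4 groups. Each surgery group held 2 females and 2 males. IR pigs 2 and 14 and sham pigs 4 and 5 were female, and IR pigs 9 and 11 and sham pigs 12 and 13 were male. Scar zone samples of IR hearts were mixtures of scar and muscle, those of sham hearts were matched to them in size and position, and the border zone was the ventricle beside the scar zone. Sham pigs also had the chest opened and the suture placed, so these parts of the surgery are shared by all groups. The paper reports heparin for all IR pigs and does not mention it for sham pigs. Drugs, defibrillation and cardiac massage were given as needed to any animal with arrhythmia or a slow heart.

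Macrophages settle in the heart before birth, clear dying cells and debris, and are joined after injury by blood monocytes that turn into macrophages in the tissue. Resident cells carry scavenger receptors such as CD163, MRC1 and LYVE1, and macrophages that take up cell debris switch on genes for handling lipid such as APOE, GPNMB and TREM2. Dendritic cells and activated macrophages show CD80, CD86 and CD40 to T cells, and neutrophils, the first cells to arrive, are rich in S100A8 and S100A9.

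Counts per 1000000 (CPM) are read counts scaled for library size and composition, and are compared within a gene. Transcripts per 1000000 (TPM) are scaled for transcript length as well, and are used wherever the levels of different genes are set side by side. On the TPM scale over all 16 samples, the highest medians were those of C1QA at 57.4 TPM, CTSD at 53.2 TPM, C1QC at 36.0 TPM, C1QB at 35.1 TPM and TYROBP at 30.6 TPM. C1QA, C1QB and C1QC encode the chains of complement C1q, CTSD encodes a lysosomal protease present in most cells, and TYROBP encodes a signaling adaptor of myeloid receptors. A median of at least 10 TPM was reached by 12 members and a median of at least 1 TPM by 36. The 11 members below 1 TPM included S100A8 at 0.747 TPM, TREM2 at 0.592 TPM, CSF3R at 0.575 TPM and TLR8 at 0.499 TPM, and S100A12 was last at 0.0980 TPM. None of the 46 pairs of neighbors in this order was separated by more than its spread over samples, since the ranges of all 46 overlapped.

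Estimated counts per library lay between 15427663 and 49045206, and 3 counts, taken as the floor, corresponded to between 0.0612 and 0.194 CPM. The 4 libraries of the male IR pigs were the deepest, with at least 33521418 against at most 27088652 in the other 12. Their scar zone libraries also stood apart in other genes, as the plot of summed levels shows. Summed TPM of 7 fibroblast markers was 9758 in pig 9 and 9976 in pig 11 in the scar zone, and between 1349 and 2359 in the other 14 samples. Summed TPM of the 47 members was 1318 and 1099 in those 2 libraries and between 300 and 549 in the rest. The 4 smooth muscle and pericyte markers, at 671 and 492 TPM, and the 1 epicardial marker, at 5.93 and 5.53 TPM, were also above the other 14 samples, at 241 to 464 and 1.71 to 3.47 TPM. The 6 T and NK cell markers summed to 45.8 and 37.1 TPM there and to between 8.05 and 45.2 TPM elsewhere. Heart muscle markers were high everywhere, at 29901 to 40397 TPM. The Y-linked gene DDX3Y was at 68.3 to 103 CPM in the male libraries and at 0.399 to 1.21 CPM in the female libraries, except the scar zone library of pig 14 at 4.47 CPM. In tissue RNA, fewer cells of a type and less RNA per cell cannot be told apart. The part of the fibroblast marker level and of depth in the results was not tested. For single pigs, fits that left out each pig in turn or both male IR pigs are given below.

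**Figure D1:**
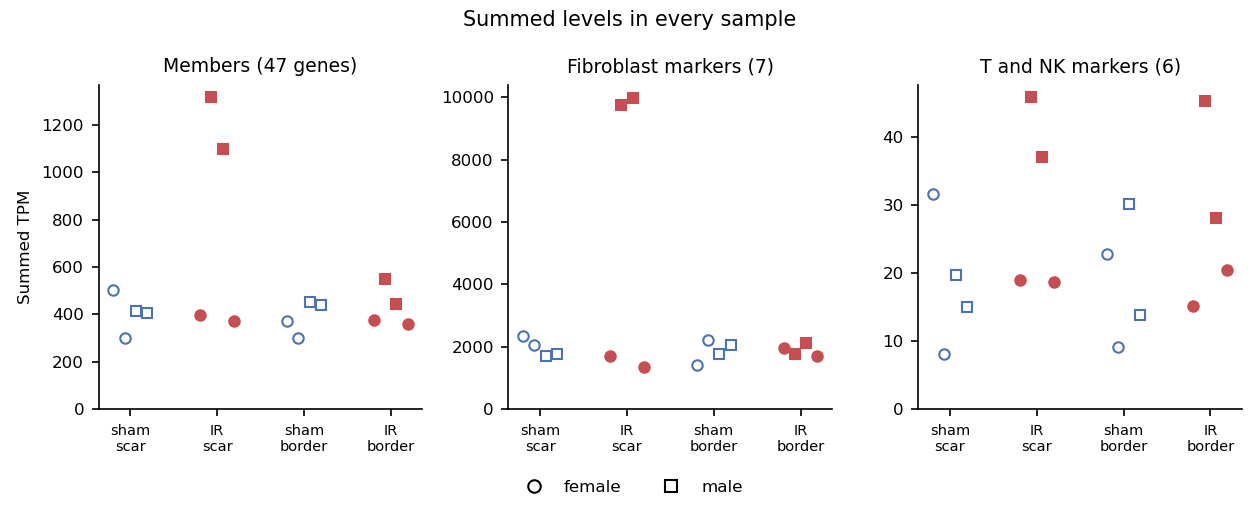
Summed TPM (vertical axis) of the 47 members, of 7 fibroblast markers and of 6 T and NK cell markers in every sample, by group, with circles for females and squares for males, open blue for sham and filled red for IR. The 2 male IR scar zone samples reach 1318 and 1099 TPM for the members and 9758 and 9976 TPM for the fibroblast markers, above the other 14 samples in both panels.

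The first comparison asked which members differed between IR and sham pigs in the scar zone. All 45 members that passed the filter on low counts had a positive log2 fold change in the edgeR fit, where 53.9% of all 14023 genes did, and their median was 0.63 against 0.03 over all genes. A fold change of at least 2 with a nominal (unadjusted) p of 0.05 or less was met by 7 members, all higher in IR pigs: APOE, CD209, CD86, LGALS3, LYZ, MARCO and S100A12. The paper had already named CD86 and CD209 among the genes raised in the IR scar zone. The share of members called is therefore not independent of earlier results of these data. With sex as a covariate, and likewise with 1 RUVg factor of unwanted variation, APOE and MARCO alone passed. In limma on log2(TPM + 1) APOE alone passed, and on log2(TPM + 0.1) APOE and CD86, where MARCO and S100A12 were not tested. In the edgeR fit without a covariate or factor, 2.74% of all genes met this threshold upward and 0.613% downward. The shares of all genes in the other fits are not given. At a nominal p of 0.05 or less whatever the fold, 12 members were higher, with CD40, CSF3R, FCER1G, MERTK and MSR1 beside those 7. After Benjamini-Hochberg adjustment 0 members and 0.0% of all genes passed in edgeR, although 1572 genes had a nominal p of 0.05 or less, and DESeq2 also gave 0 members. The smallest adjusted p-value of a member was 0.438. S100A8 and S100A9 had too few counts to be tested, and without the filter all 47 members had a positive fold change.

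Most of these differences lay in the male IR pigs. Both of them were above the other 6 pigs in the scar zone in 32 of the 45 tested members, where 18.0% of all genes had that order. Relative to the mean of the sham pigs, the median member was 2.27-fold in the male and 0.967-fold in the female IR pigs. With both male IR pigs left out, 20 of 45 members had a positive fold change, against 49.7% of all genes. The median of the members was -0.05, against -0.00186 over all genes. The unadjusted threshold was passed upward by 0 members, against 0.782% of all genes. In that fit 1 member passed downward, LYVE1 (log2 fold change -1.22 ± 0.26 (SE), unadjusted p = 0.00137), against 0.789% of all genes. The fit without these pigs was chosen after the data were seen and leaves 2 IR pigs against 4 sham pigs.

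**Figure D2:**
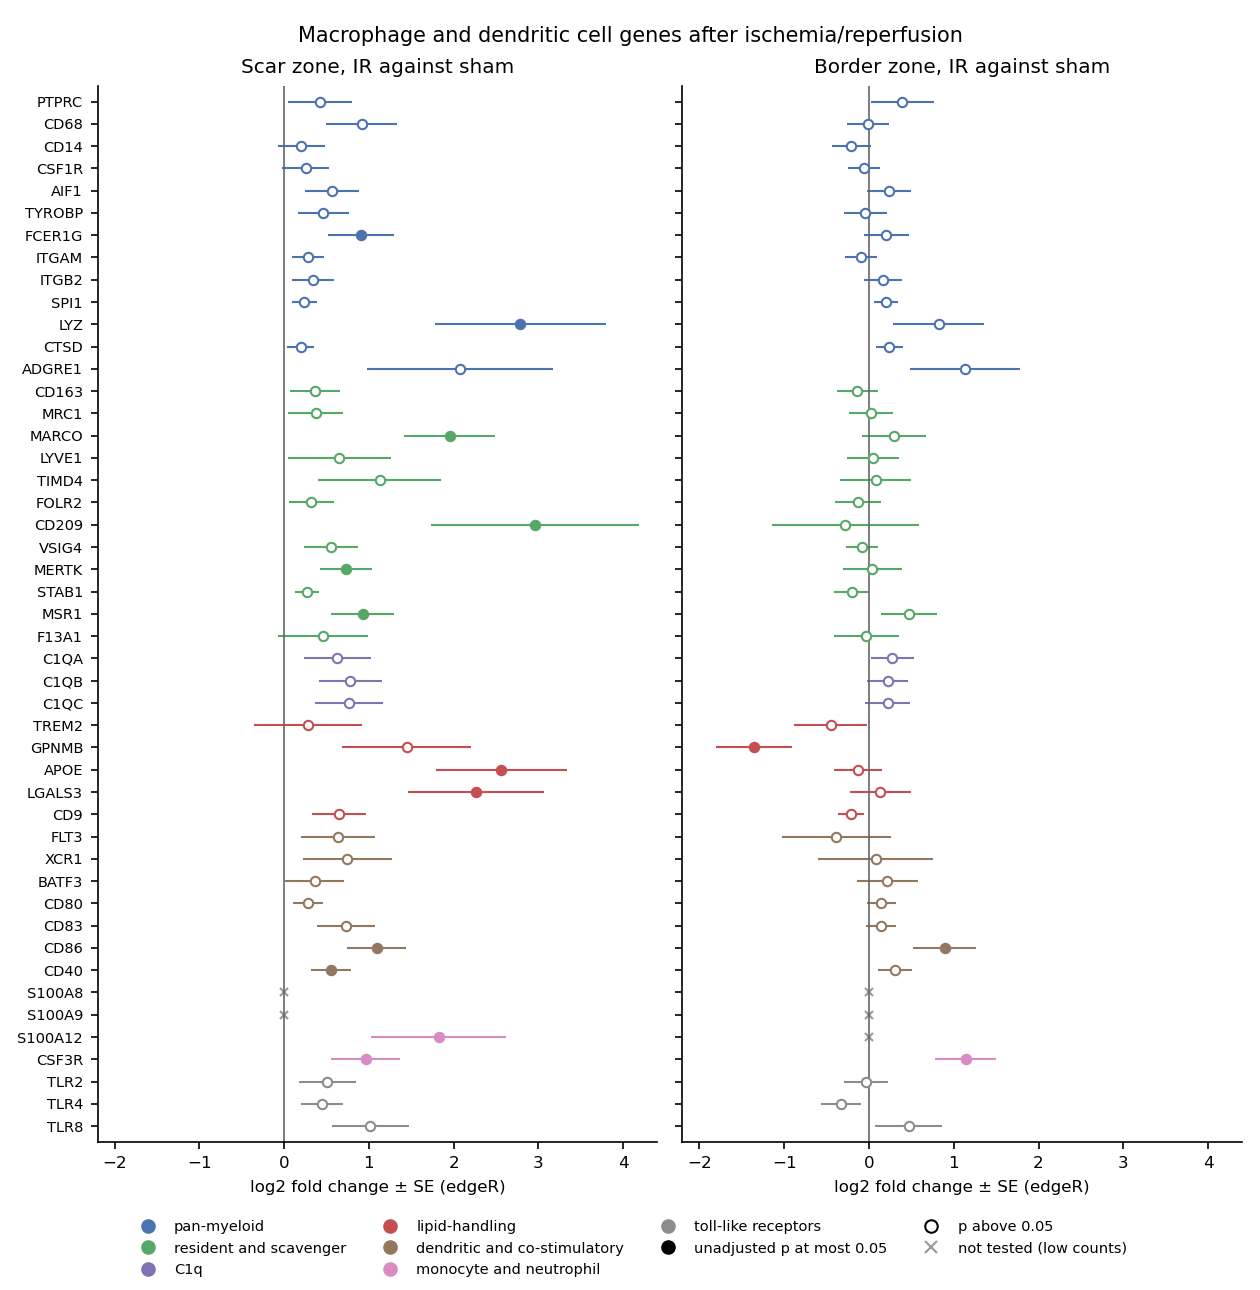
Log2 fold change between IR and sham pigs (horizontal axis, edgeR, bars are standard errors) for each member, in both zones, colored by role, with filled points at a nominal p of 0.05 or less and crosses at 0 for members not tested. All 45 tested members lie right of 0 in the scar zone, and 26 of 44 do in the border zone, against 53.9% and 50% of all genes.

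Pan-myeloid genes are those that macrophages, monocytes and neutrophils share. All 13 were positive in the scar zone, with a median log2 fold change of 0.43, and LYZ alone passed the unadjusted threshold. Values in the scar zone are given from here on in the order of IR pigs 2, 14, 9 and 11 and sham pigs 4, 5, 12 and 13, with the females first in each group. PTPRC, the pan-leukocyte phosphatase CD45, was at 23.3, 36.3, 53.4 and 40.7 CPM in IR pigs and at 40.7, 10.7, 34.2 and 28.5 CPM in sham pigs. The groups overlapped, and the log2 fold change was 0.43 ± 0.37 (SE, unadjusted p = 0.284). CSF1R, the receptor for the macrophage growth factor CSF1, was at 55.7, 60.4, 113 and 113 CPM against 95.9, 52.4, 63.0 and 74.1 CPM. The male IR pigs were the highest and the female IR pigs lay within the sham range. CD68, a lysosomal protein of macrophages, showed the same order, with 7.22, 6.56, 24.6 and 19.3 CPM against 9.49, 5.65, 7.39 and 8.14 CPM (log2 fold change 0.91 ± 0.42, unadjusted p = 0.0537). CD14, the co-receptor for bacterial lipopolysaccharide, was at 8.95, 5.32, 8.63 and 14.2 CPM against 10.2, 6.78, 7.54 and 7.61 CPM, so that pig 11 alone was above all sham pigs.

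LYZ encodes lysozyme, an enzyme that cuts bacterial walls. It was at 2.66, 3.54, 71.1 and 10.2 CPM in IR pigs and at 4.56, 0.992, 3.14 and 4.11 CPM in sham pigs, and its log2 fold change was 2.78 ± 1.01 (unadjusted p = 0.0210). Pig 9 stood far above the rest, and without pig 9 the log2 fold change was 0.76. The call was also lost without sham pig 5. FCER1G, the signaling chain shared by Fc receptors, was at 9.52, 9.68, 21.7 and 30.1 CPM against 12.9, 6.24, 9.55 and 9.15 CPM. TYROBP, another signaling adaptor, was at 10.2, 9.87, 18.1 and 19.0 CPM against 15.5, 6.95, 9.61 and 9.33 CPM. AIF1, the cytoskeletal protein known as IBA1, was at 9.94, 8.13, 19.5 and 21.6 CPM against 11.3, 7.05, 10.7 and 10.9 CPM. In all 3 the male IR pigs were above every other pig. The integrin chains ITGAM and ITGB2, the myeloid transcription factor SPI1 and CTSD had small log2 fold changes, from 0.19 for CTSD to 0.34 for ITGB2. ADGRE1 was at 0 in the scar zone of pig 14 and at 7.09 CPM in pig 11. The line named GP91-PHOX, a synonym of CYBB in the reference gene table, was not counted as a member and had a log2 fold change of 0.37 ± 0.31 (unadjusted p = 0.259).

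Resident and scavenger receptor genes gave 12 positive fold changes of 12, with a median of 0.60, and MARCO and CD209 passed the unadjusted threshold. MARCO, a scavenger receptor with a collagen-like stalk, was at 1.42, 1.04, 1.61 and 4.01 CPM in IR pigs and at 0.891, 0.485, 0.227 and 0.502 CPM in sham pigs. Every IR pig was above every sham pig, with a log2 fold change of 1.95 ± 0.54 (unadjusted p = 0.00497, exact permutation p = 0.0286, the smallest that 4 against 4 pigs allow). The fold change stayed above the threshold with each pig left out in turn, between 1.38 and 2.33, and these levels rest on 6.27 to 134 estimated counts. Without both male IR pigs it was 1.23.

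CD209, a lectin of dendritic cells and tissue macrophages that binds sugars on pathogens, had the largest fold change of all members, 2.96 ± 1.23 on the log2 scale (unadjusted p = 0.0378). It was at 2.37, 0.953, 36.8 and 66.4 CPM against 7.32, 0.345, 1.34 and 4.74 CPM. The female IR pigs lay within the sham range. The call was lost in 5 of the 8 fits that left out a pig, those without IR pig 9 or 11 or sham pig 5, 12 or 13, and without both male IR pigs the log2 fold change was -1.03. MSR1, a scavenger receptor for modified lipoproteins, was at 4.69, 6.20, 16.0 and 11.7 CPM against 4.61, 3.72, 5.50 and 6.52 CPM. MERTK, a receptor kinase for the uptake of dying cells, was at 4.56, 5.24, 12.5 and 9.28 CPM against 5.01, 4.31, 5.10 and 4.66 CPM. In both the male IR pigs were the highest and the female IR pigs lay at or near the sham range, with log2 fold changes of 0.93 ± 0.37 and 0.73 ± 0.31 (unadjusted p = 0.0330 and 0.0409).

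CD163, the receptor that takes up hemoglobin bound to haptoglobin, was at 33.3, 46.7, 54.3 and 89.8 CPM against 37.9, 31.0, 60.4 and 44.3 CPM, with sham pig 12 above all IR pigs except pig 11. MRC1, the mannose receptor, was at 12.8, 22.1, 32.4 and 40.3 CPM against 19.6, 13.98, 25.3 and 24.1 CPM. LYVE1, a hyaluronan receptor of resident macrophages that lymphatic vessels also make, split the IR pigs by sex. It was at 4.47 and 3.44 CPM in the females, below all 4 sham pigs at 7.44 to 12.1 CPM, and at 16.8 and 33.3 CPM in the males, above all 4. VSIG4, a complement receptor of resident macrophages, was at 12.5, 20.2, 32.1 and 34.7 CPM against 15.9, 10.9, 19.6 and 21.3 CPM. STAB1, a scavenger receptor shared with endothelium, was at 84.8, 85.6, 114 and 118 CPM in IR pigs and at 85.8, 74.4, 87.4 and 85.7 CPM in sham pigs. FOLR2, TIMD4 and F13A1 had log2 fold changes of 0.32, 1.13 and 0.46, each with an unadjusted p-value above 0.05.

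The C1q genes followed one another closely, and none of the 3 passed the threshold. C1QA was at 57.6, 63.8, 114 and 219 CPM in IR pigs and at 82.2, 49.4, 77.5 and 84.1 CPM in sham pigs, with a log2 fold change of 0.62 ± 0.39 (unadjusted p = 0.146) that was 0.0991 without pig 11. C1QB was at 75.9, 99.5, 168 and 286 CPM against 106, 65.4, 98.2 and 94.1 CPM, and C1QC at 85.9, 101, 179 and 350 CPM against 122, 75.3, 106 and 114 CPM. In all 3 the male IR pigs were highest, with pig 11 above pig 9. Without pig 11 the log2 fold changes of C1QB and C1QC were 0.33 and 0.22. The 3 chains kept a near fixed proportion: the TPM ratio of C1QC to C1QB lay between 0.921 and 1.15 over the 16 samples, and that of C1QA to C1QB between 1.27 and 1.78. Over the same samples the ratio of CSF1R to C1QB lay between 0.190 and 0.444, that of APOE to LGALS3, both lipid-handling genes, between 0.788 and 3.82, and that of CSF1R to APOE between 0.364 and 5.15.

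Lipid-handling genes had a median log2 fold change of 1.44 in the scar zone, which rested on pig 9. APOE, which carries lipid out of loaded macrophages and is also made by other cells, was at 3.75, 5.38, 61.1 and 31.2 CPM in IR pigs and at 3.70, 5.35, 3.98 and 4.19 CPM in sham pigs. The female IR pigs were close to the sham pigs and both male IR pigs were far above them. The group means were 25.3 ± 26.9 and 4.30 ± 0.724 CPM (SD, n = 4), with a log2 fold change of 2.56 ± 0.77 in edgeR (unadjusted p = 0.00842). It passed with each pig left out in turn, between 1.63 and 2.92, and was 0.08 without both male IR pigs. LGALS3, the sugar-binding protein galectin-3 of phagocytes, was at 2.37, 1.09, 24.9 and 11.3 CPM against 2.71, 1.77, 1.63 and 2.25 CPM (log2 fold change 2.26 ± 0.80, unadjusted p = 0.0189). It was 1.24 and did not pass without pig 9, and was -0.26 without both male IR pigs. GPNMB, a membrane protein of lipid-laden macrophages, was at 15.9, 3.61, 66.2 and 15.6 CPM against 10.2, 9.45, 2.86 and 15.02 CPM. Its log2 fold change of 1.44 ± 0.76 (unadjusted p = 0.0884) is the median of the 5 lipid-handling genes, and it was 0.31, still the median, without pig 9. CD9, a tetraspanin of many cell types, was at 22.3, 15.3, 51.6 and 36.8 CPM against 20.5, 21.1, 19.0 and 19.5 CPM. TREM2, the lipid-sensing receptor, was at 0.926, 1.65, 5.06 and 0.420 CPM against 2.04, 1.40, 1.72 and 1.62 CPM. Pig 9 was thus the highest of the 8 pigs for TREM2 and pig 11 the lowest, and without pig 9 its log2 fold change was -0.83.

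**Figure D3:**
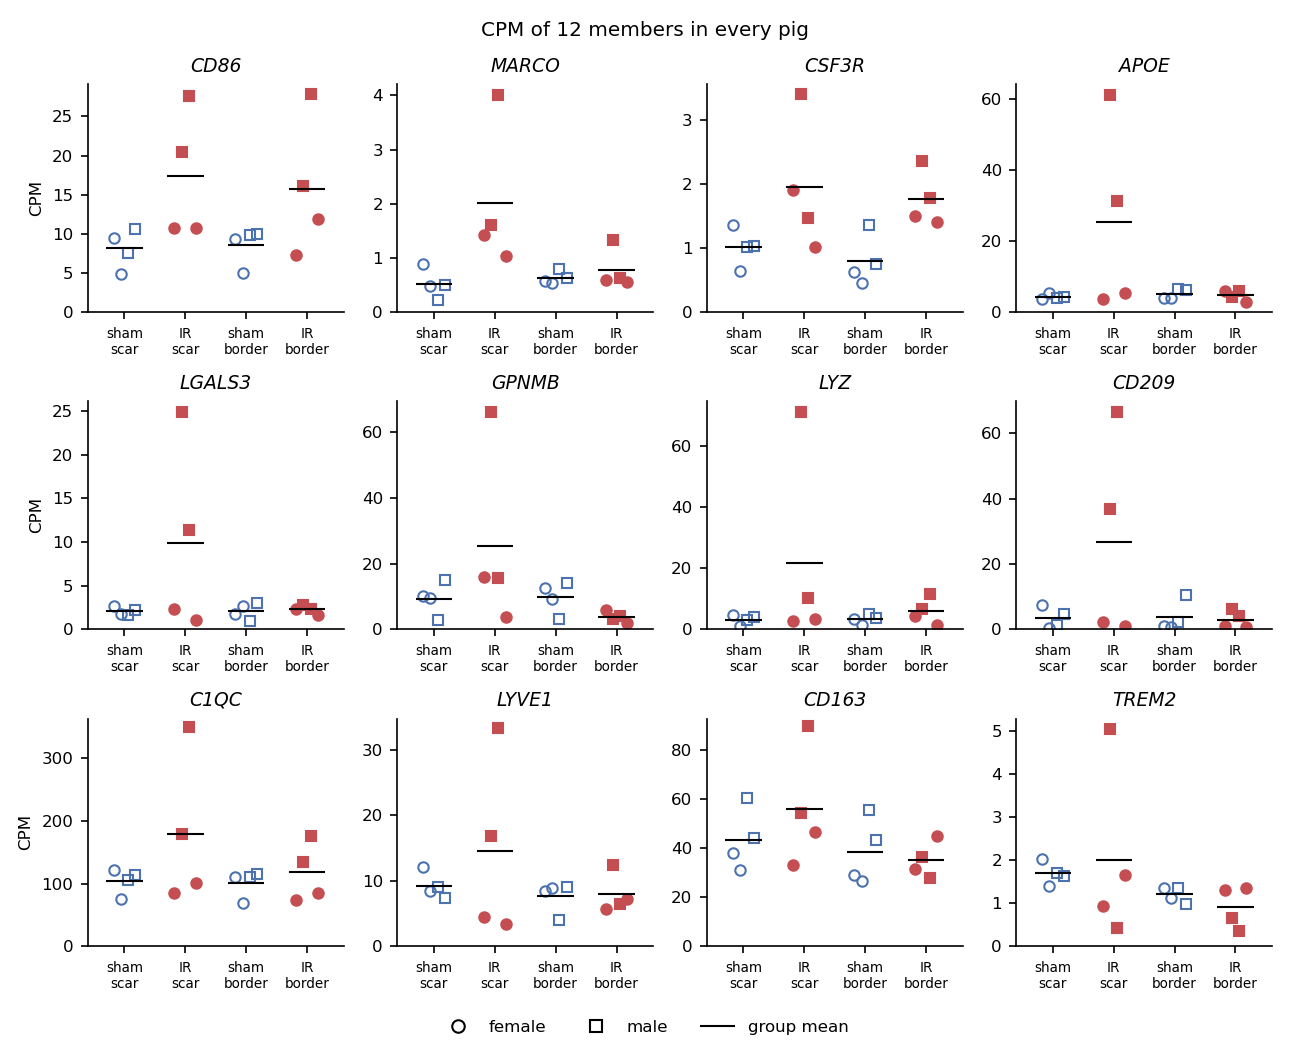
CPM (vertical axes, from 0) of 12 members in the 4 samples of each group, with circles for females, squares for males, open blue for sham, filled red for IR and a line at the group mean. CD86 and MARCO are higher in every IR pig than in every sham pig in the scar zone, CSF3R in the border zone, and APOE, LGALS3 and CD209 are high in the 2 male IR scar zone samples alone.

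Dendritic and co-stimulatory genes were all positive in the scar zone, 7 of 7, with a median of 0.63. CD86, which gives T cells their second signal, was at 10.7, 10.8, 20.5 and 27.6 CPM in IR pigs and at 9.44, 4.94, 7.63 and 10.6 CPM in sham pigs (log2 fold change 1.09 ± 0.35, unadjusted p = 0.0113). CD40, the receptor through which T cells activate antigen-presenting cells, was at 7.28, 7.24, 9.70 and 13.1 CPM against 6.51, 4.66, 7.11 and 7.03 CPM (0.55 ± 0.23, unadjusted p = 0.0403). In both genes the female IR pigs lay just above the highest sham pig and the groups did not overlap (exact permutation p = 0.0286 each). The call of CD86 was lost without IR pig 9, IR pig 11 or sham pig 5, and without both male IR pigs its log2 fold change was 0.39. With MARCO, these are the 3 members with every IR pig above every sham pig in the scar zone, an order found in 2.19% of all genes. The reverse order was found in 0 members and in 2.65% of all genes. CD83, a maturation marker, was at 5.56, 7.53, 14.5 and 17.5 CPM against 6.67, 4.97, 7.43 and 8.14 CPM. FLT3 is the growth factor receptor of dendritic cell precursors. It was at 0.751, 0.340, 0.606 and 0.748 CPM against 0.471, 0.173, 0.325 and 0.632 CPM, from 4.00 to 26.0 estimated counts. XCR1, BATF3 and CD80 had log2 fold changes of 0.75, 0.36 and 0.28, and none passed an unadjusted p-value of 0.05.

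Of the 4 monocyte and neutrophil genes, S100A8 and S100A9 were near the floor in most samples, and S100A12 and CSF3R were tested in the scar zone. S100A8 and S100A9, the paired calcium-binding proteins that fill neutrophils, had 47 and 81 estimated counts in the scar zone of pig 11 and at most 7 and 15 in any of the other samples. In CPM, S100A8 was at 0.173, 0.136, 0.117 and 1.41 in IR pigs and at 0.136, 0.0863, 0.217 and 0.158 in sham pigs. S100A12, a relative of both, was at 0.119, 0.859, 0.501 and 2.27 CPM against 0.435, 0.0910, 0.141 and 0.404 CPM (log2 fold change 1.82 ± 0.80, unadjusted p = 0.0474). These levels rest on 2.07 to 75.9 estimated counts, with IR pig 2 and sham pig 5 below the floor of 3 counts. S100A12 did not pass in 5 of the 8 fits that left out a pig. Those were the fits without IR pig 11 or 14 or sham pig 5, 12 or 13. Its log2 fold change was 0.85 without pig 11. CSF3R, the receptor for the neutrophil growth factor G-CSF, was at 1.91, 1.02, 3.402 and 1.47 CPM against 1.36, 0.647, 1.01 and 1.03 CPM (0.96 ± 0.41, unadjusted p = 0.0415). The toll-like receptors, sensors of microbial products, were positive in 3 of 3. TLR8, which senses single-stranded RNA, was at 2.20, 2.68, 10.2 and 6.46 CPM against 3.32, 2.62, 2.26 and 2.52 CPM (1.02 ± 0.46, unadjusted p = 0.0513). TLR4, the lipopolysaccharide receptor, was at 6.99, 8.85, 11.9 and 13.6 CPM against 5.42, 7.204, 7.84 and 9.92 CPM. TLR4 and TLR2, a receptor for bacterial lipoproteins, had log2 fold changes of 0.44 ± 0.25 and 0.51 ± 0.34.

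In the border zone the same comparison gave few differences. Of 44 tested members 26 were positive, against 50% of all genes, and the median log2 fold change of the members was 0.08. CSF3R passed the unadjusted threshold upward, 1 member where 0.517% of all genes did, and GPNMB passed downward, 1 member where 0.277% did. After adjustment 0 members and 0.0% of all genes passed in edgeR, where 519 genes had a nominal p of 0.05 or less, and DESeq2 gave 0 members as well. CSF3R was at 1.497, 1.40, 2.36 and 1.78 CPM in IR pigs and at 0.633, 0.461, 1.36 and 0.753 CPM in sham pigs, in the order of pigs used above. Every IR pig was above every sham pig (log2 fold change 1.14 ± 0.36, unadjusted p = 0.0105, exact permutation p = 0.0286), an order seen in this 1 member and in 0.787% of all genes. It did not pass without IR pig 9 (0.97) or without sham pig 5 (0.95), and without both male IR pigs the log2 fold change was 0.85. The reverse order was seen in 0 members and 1.25% of all genes.

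GPNMB in the border zone was at 6.04, 1.99, 3.07 and 4.09 CPM in IR pigs and at 12.5, 9.27, 3.16 and 14.2 CPM in sham pigs. Only sham pig 12 lay within the IR range, and the log2 fold change of -1.36 ± 0.45 (unadjusted p = 0.0121) passed with each pig left out in turn, between -1.66 and -1.13. Without both male IR pigs it was -1.28 and did not pass. CD86 was at 7.31, 11.9, 16.1 and 27.9 CPM in IR pigs and at 9.33, 4.996, 9.87 and 9.9997 CPM in sham pigs (log2 fold change 0.89 ± 0.37, unadjusted p = 0.0368), so pig 2 was within the sham range and the other IR pigs were above it. Without pig 11 it was 0.46. No other member reached an unadjusted p-value of 0.05 there. APOE was at 5.94, 2.86, 4.18 and 6.002 CPM against 3.99, 4.15, 6.56 and 6.25 CPM, and CD209 at 0.918, 0.643, 6.32 and 4.06 CPM against 1.07, 0.819, 2.28 and 10.6 CPM. The male IR pigs, which had the highest scar zone values of both genes, were within the sham range here. Both male IR pigs were above the other 6 pigs in 12 of the 44 tested members in the border zone, an order found in 4.92% of all genes, among them C1QA, C1QB, C1QC, CD86, CD40 and LYZ.

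**Figure D4:**
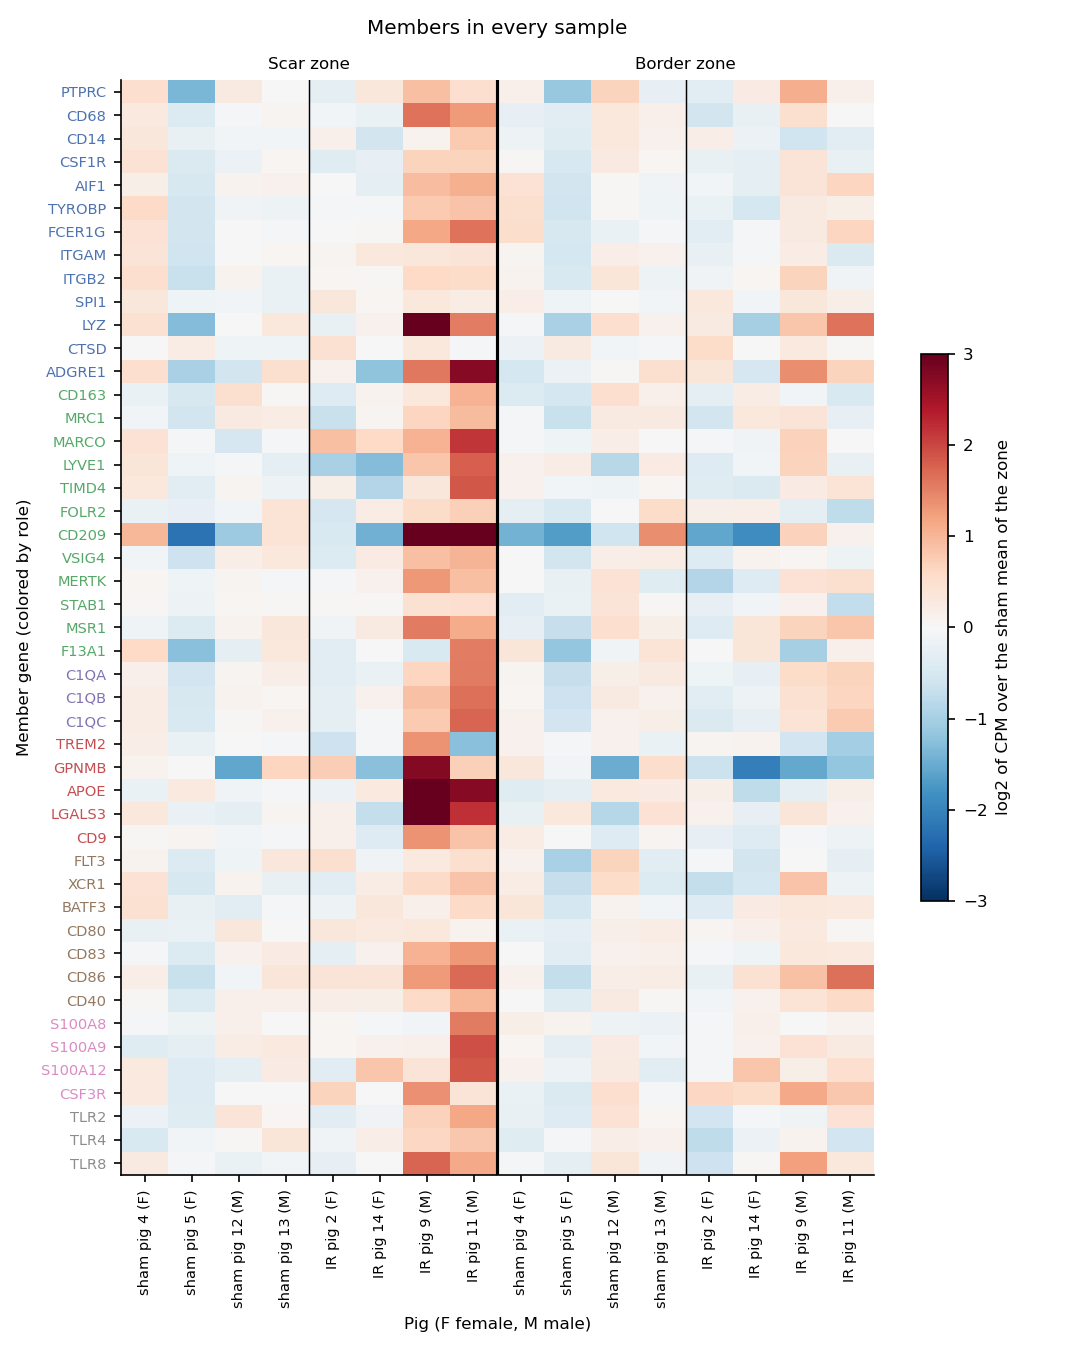
Log2 ratio of CPM to the sham mean of the same zone, with 0.5 CPM added to both, for the 47 members (rows, names colored by role) in the 16 samples (columns, F female, M male). Red columns stand out in the scar zone of IR pigs 9 and 11, sham pig 5 is the bluest sham column in both zones, and GPNMB is blue in all 4 IR border zone samples.

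Whether the IR effect differed between zones was tested directly over all 16 samples. The IR effect in the scar zone exceeded that in the border zone for 4 members at the unadjusted threshold, where 1.32% of all genes passed in that direction, and was smaller for 0, where 0.049% did. The 4 were GPNMB (log2 difference 2.81 ± 0.97, unadjusted p = 0.0108), APOE (2.70 ± 0.88, unadjusted p = 0.00714), LGALS3 (2.13 ± 0.94, unadjusted p = 0.0374) and MARCO (1.67 ± 0.68, unadjusted p = 0.0256). Lipid-handling genes thus gave 3 of the 4, and CD9 and TLR4 had unadjusted p-values of 0.0342 and 0.0433 at log2 differences of 0.87 and 0.78. After adjustment 0 members and 0.0% of all genes passed in edgeR, with 317 genes at a nominal p of 0.05 or less, and DESeq2 gave 0 members. With the pig as a block, which pairs the zones of a heart, 4 members passed again, with CD209 (2.76, unadjusted p = 0.0142) in and LGALS3 (1.46, unadjusted p = 0.0869) out. At a nominal p of 0.05 or less the block moved the count of members from 6 to 15 and that of all genes from 317 to 998. APOE passed with each pig left out in turn. The call was lost for GPNMB without IR pig 9, for LGALS3 without IR pig 9 or 11 or sham pig 5 or 13, and for MARCO without IR pig 11 or sham pig 5, 12 or 13. Without both male IR pigs 0 members passed, against 0.437% of all genes upward and 0.25% downward.

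Within the IR pigs all 45 tested members were on average higher in scar zone than in border zone samples, against 51.6% of all genes. The median log2 difference of the members was 0.51. The unadjusted threshold was passed by 5, where 1.69% of all genes passed upward and 0.0776% downward. These were CD209 (3.12 ± 1.21), GPNMB (2.75 ± 0.76), APOE (2.42 ± 0.80), LGALS3 (2.13 ± 0.80) and MARCO (1.39 ± 0.50). CD163, CD9, STAB1, TLR4 and VSIG4 had unadjusted p-values between 0.0214 and 0.0464 at log2 differences of 0.55 to 0.89, so that 10 members had a nominal p of 0.05 or less. After adjustment 0 members and 0.0% of all genes passed in edgeR, where 617 genes had a nominal p of 0.05 or less, and 0 members in DESeq2. Pig by pig, the scar zone was higher in 42 of 47 members in pig 11 with a median log2 difference of 1.05, in 40 in pig 9 (0.46), in 35 in pig 2 (0.14) and in 31 in pig 14 (0.09), where between 48.9% and 52.5% of all genes tested were higher in each pig. All 4 IR pigs were higher in the scar zone for 17 members, all of them tested, an order found in 10.7% of all genes. With the pig as a block 4 members passed and LGALS3 did not (1.502, unadjusted p = 0.0574). The block moved the count at a nominal p of 0.05 or less from 10 to 16 members and from 617 to 1601 genes. CD163 was no longer among them (unadjusted p = 0.0654), and MERTK (log2 difference 0.76, unadjusted p = 0.00207), TYROBP, CD68, TLR2, C1QB, C1QC, CSF1R and ITGAM came in. With each IR pig left out in turn GPNMB kept its call, APOE lost it without pig 9, CD209 and LGALS3 without pig 9 or 11, and MARCO without pig 2 or 11.

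Sham pigs gave the regional background. Of 44 tested members 23 were higher in the sham scar zone, against 47.4% of all genes, and the median log2 difference was 0.02. The unadjusted threshold was passed by 0 members, where 0.029% of all genes passed upward and 0.0724% downward. After adjustment 0 members and 0.0% of all genes passed in edgeR, with 113 genes and 0 members at a nominal p of 0.05 or less, and 0 members passed in DESeq2. With the pig as a block 659 genes and 2 members had a nominal p of 0.05 or less, FCER1G (log2 difference -0.26, unadjusted p = 0.0297) and CD163 (0.18, unadjusted p = 0.0474). The scar zone was higher in between 15 of 47 members in sham pig 12 and 34 in sham pig 4, where between 49.05% and 51.5% of all genes tested were higher in each pig. All 4 sham pigs were higher there for 7 members, an order found in 6.91% of all genes. Sham pig 5 had the lowest sham value for 34 of 47 members in the scar zone and for 33 in the border zone, and was therefore low in both of its samples.

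The IR effect in the scar zone was then compared between males and females, with 2 pigs for each surgery and sex, so that sex and the individual pigs cannot be told apart. The IR effect was larger in males for 16 members at the unadjusted threshold, where 6.08% of all genes passed in that direction, and smaller for 0, where 2.95% did. After adjustment APOE and LYVE1 passed in edgeR, 2 members where 1.5% of all genes passed in either direction. The adjusted count depended on the method, with 10 members in DESeq2 (5.07% of all genes), 6 without the filter (2.31%), 7 in limma on log2(TPM + 1) (3.56%), 3 on log2(TPM + 0.1) (2.89%) and 1 with 1 RUVg factor (0.442%). For APOE the log2 difference between the male and the female IR effect was 3.51 ± 0.51 (adjusted p = 0.0250), and for LYVE1 it was 2.99 ± 0.49 (adjusted p = 0.0371). The APOE means of IR and sham pigs were 4.57 and 4.53 CPM in females and 46.1 and 4.08 CPM in males. For LYVE1 they were 3.95 and 10.3 CPM in females and 25.0 and 8.21 CPM in males, so the directions were opposite. Neither passed after adjustment in 6 of the 8 fits that left out a pig, those without IR pigs 2 and 14 and without any of the sham pigs.

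The other 14 of the 16 included CD209 (log2 difference 5.27 ± 1.51), LGALS3 (3.59 ± 0.71), LYZ (3.35 ± 1.30), TLR8 (2.10 ± 0.44), MARCO (2.10 ± 0.90) and CD68 (1.65 ± 0.38), and all 3 C1q genes passed, between 1.17 and 1.35. APOE, CD68, CD9, LGALS3, LYVE1 and TLR8 passed the unadjusted threshold in all 8 fits that left out a pig. CD209 was at 1.82 and lost its call without sham pig 4, and LYZ passed in 2 of the 8 fits, with 1.36 as its lowest value, without IR pig 9. MARCO passed in 3 of the 8, C1QA in 2, TYROBP in 1, and C1QB and C1QC in 4 each. FLT3 and CD80 were the members with a negative log2 difference, -0.31 and -0.51. In the border zone the same test, added after the data were seen, gave 0 members larger in males, where 1.56% of all genes passed, and 3 smaller, where 2.56% did. The 3 were FOLR2 (-1.39), CD163 (-1.07) and CD14 (-1.03), with unadjusted p-values of 0.00392, 0.00921 and 0.0187, and 0 members passed after adjustment. The log2 differences of APOE and CD209 were -0.45 and -0.05 in the border zone.

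The male IR pigs, near each other in their summed level, were also set against each other, a comparison chosen after the values were seen and given without a test. In the scar zone 30 of the 47 members were higher in pig 11 and 17 in pig 9. Each side is a single library, and the share of all genes higher in either pig is not given. The counts of members and role groups in this comparison therefore have no background beside them. All 5 lipid-handling genes were higher in pig 9, by between 0.49 and 3.37 on the log2 scale. All 3 C1q genes and 10 of 12 resident and scavenger genes were higher in pig 11. TREM2 was at 5.06 CPM in pig 9 and 0.420 CPM in pig 11, LYZ at 71.1 and 10.2 CPM, and GPNMB at 66.2 and 15.6 CPM. In the other direction F13A1, a clotting factor made by resident macrophages, was at 6.52 CPM in pig 9 and 27.3 CPM in pig 11, TIMD4, a receptor for dying cells on long-lived resident macrophages, at 0.979 and 3.74 CPM, and LYVE1 at 16.8 and 33.3 CPM. The 13 pan-myeloid genes were divided, with 7 higher in pig 9 and 6 in pig 11, and ranged from LYZ to ADGRE1 at 2.94 and 7.09 CPM, with CSF1R at 113 CPM in both. In the border zone of the same pigs the lipid-handling genes were divided, with 3 of 5 higher in pig 9, while 8 of 12 resident and scavenger genes were higher in pig 9 and all 3 C1q genes again in pig 11.

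**Figure D5:**
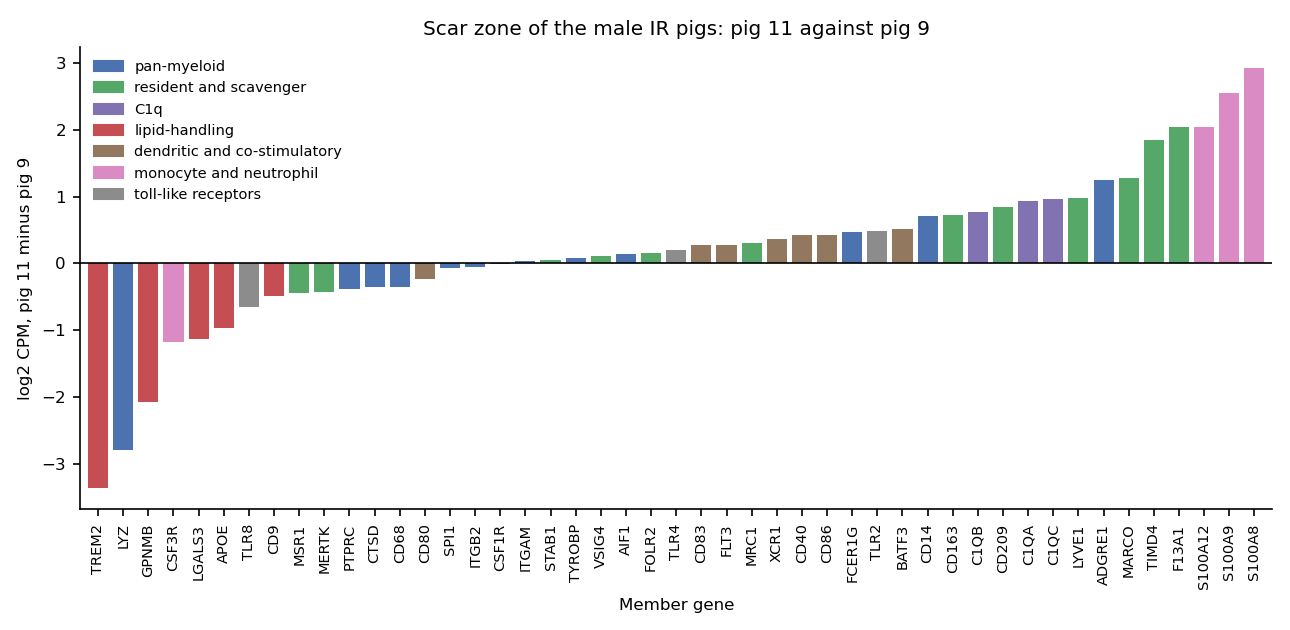
Log2 CPM of each member in pig 11 minus that in pig 9 (vertical axis, bars from 0), scar zone, in rising order and colored by role. All 5 lipid-handling genes are negative, with TREM2 at -3.37, and all 3 C1q genes and 10 of 12 resident and scavenger genes are positive. Each pig is a single library, and the share of all genes in either direction is not given.

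Other genes of the myeloid system, 38 with a line in the tables and none of them members, were tested in the same fits. In the scar zone 37 were tested and 32 were positive, against 53.9% of all genes, with a median log2 fold change of 0.47. The unadjusted threshold was passed upward by 4, SPP1, SIGLEC1, ID2 and CTSL, against 2.74% of all genes. SPP1, the matrix protein osteopontin that macrophages make after injury, had a log2 fold change of 2.65 ± 0.97 (unadjusted p = 0.0220), and CTSL, a lysosomal protease, 1.92 ± 0.70 (unadjusted p = 0.0215). The transcription factors ZBTB46 and CEBPB had unadjusted p-values of 0.0341 and 0.0194 downward, at -0.61 and -0.59. In the border zone 28 of 37 were positive, against 50% of all genes, and 0 passed the unadjusted threshold in edgeR, against 0.517% of all genes upward and 0.277% downward. The IR effect was larger in males than in females for 15 of 37 in the scar zone at that threshold and smaller for 0, against 6.08% and 2.95% of all genes. The growth factor CSF1 had a log2 fold change of 0.73 ± 0.31 in the scar zone (unadjusted p = 0.0447), beside 0.26 ± 0.28 for its receptor CSF1R.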

How the data were processed

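The authors made stranded libraries of polyadenylated RNA and, per the submitters' processing notes, used Trimmomatic 0.33, HISAT2 2.0.5 and kallisto 0.43.1. The files deposited by the authors hold estimated counts (kallisto shares out reads between transcripts, unscaled for depth) and TPM, which is scaled for transcript length and depth. The genome build is not given in the sources used here, so no coordinates are printed. The split of reads between near-identical genes is an estimate.

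Estimated counts were rounded and fitted over all genes with edgeR 4.0.16 (R 4.3.3), TMM scaling, filterByExpr (minimum count 10, minimum total 15) and its quasi-likelihood test, with p-values adjusted by Benjamini-Hochberg. Calls needed a fold change of at least 2 and p of at most 0.05, adjusted or unadjusted as stated. Log2 CPM used a prior count of 2. Exact permutation tests were two-sided on log2 CPM. Replicates are different pigs. Scar and border zone samples with the same number come from the same pig, and the correlations of their deviations from group means were 0.354 to 0.692.

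Alternatives were DESeq2 1.42.0, upper-quartile scaling, no filter, limma 3.58.1 on log2(TPM + 1) and log2(TPM + 0.1), 1 RUVg factor from 5000 genes, sex as a covariate, all 16 samples in 1 fit, the pig as a replicate block, and each pig left out. The members and lists were chosen with earlier results of these data known. Values in every pig are given for 34 members. These are 12 core members and any with an unadjusted p of at most 0.05 in the main edgeR fits of the 6 comparisons. Members without overlap between IR and sham pigs in a zone were added. The alternative fits, such as the pig as a block and the border zone test of the sexes, were not used for this choice. Promoter and protein sequences were not analysed here.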

Additional observations from a re-analysis of the deposited data

Results flagged for a closer look

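On the log2 CPM scale, the value farthest from the rest of its group was looked for in 136 groups of 4 samples, those of the 34 members given in every pig, and 8 were past Dixon's critical value for 4 samples. Chance alone gives about 1 in 20, and 8 of 136 is near that share. The groups are not independent, since the members were measured in the same samples. Sham pig 5 was the low sample in 5 of the 8. It had AIF1 at 7.05 CPM, STAB1 at 74.4 CPM and C1QA at 49.4 CPM in the scar zone, and C1QC at 68.4 CPM and CD86 at 4.996 CPM in the border zone. Sham pig 12 had a low LYVE1 of 4.08 CPM in the border zone. IR pig 9 had a high CSF1R of 82.1 CPM in the border zone, and IR pig 11 a high S100A8 of 1.41 CPM in the scar zone.

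The IR effect in the scar zone differed between males and females after Benjamini-Hochberg adjustment in edgeR for APOE, by 3.51 on the log2 scale, and for LYVE1, by 2.99. APOE was higher than the sham mean of its sex in 2 of 2 male IR pigs, and LYVE1 was higher in 2 of 2 males and lower in 2 of 2 females. Neither passed after adjustment in 6 of the 8 fits that left out a pig, and other methods gave between 1 and 10 adjusted members. With 2 pigs for each sex and surgery, sex cannot be told apart from the individual pigs.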

How the results depend on the processing

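Counts of members past the unadjusted threshold moved with both the pigs and the method. The shares of all genes past that threshold in the alternative fits of this paragraph are not given. Moves of the members and of all genes can therefore not be told apart here. In the scar zone (7 members) sex as a covariate gave 2, 1 RUVg factor 2, limma on log2(TPM + 1) 1 and on log2(TPM + 0.1) 2, all 16 samples in 1 fit 9, and leaving out each pig between 3 (IR pig 9 or sham pig 5) and 15 (IR pig 14). In the border zone (2 members) the limma fits gave 0 and 1, the fit of all 16 samples 1, and leaving out each pig between 1 and 5. For the difference between zones (4 members) limma gave 0 and 1 and leaving out a pig 2 to 6, and for the zones of the IR pigs (5 members) limma gave 1 and 1 and leaving out a pig 2 to 6. For the difference between sexes (16 members, 2 adjusted) the counts were 6 (without sham pig 4) to 23 (without sham pig 5), and adjusted 0 to 3, where the lone pig left of a sex and surgery is assumed to vary like the others. Adjusted, DESeq2 gave 10, no filter 6, limma 7 and 3, and 1 RUVg factor 1. The 2 limma fits moved the median of all genes by 0.121 and 0.138 in the scar zone and by 0.381 and 0.4302 in the difference between sexes. The cause was not tested.

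With both male IR pigs left out, chosen after the data were seen, the counts were 1 in the scar zone, 0 in the border zone, 0 for the difference between zones and 0 for the zones of the IR pigs. Log2 fold changes in the scar zone then turned negative for 25 members, ADGRE1 (-0.73), F13A1 (-0.15), FOLR2 (-0.11), TIMD4 (-0.45), TLR2 (-0.23), XCR1 (-0.07) and AIF1 (-0.15), C1QA (-0.28), C1QB (-0.0566), C1QC (-0.16), CD14 (-0.17), CD163 (-0.12), CD209 (-1.03), CD68 (-0.16), CD83 (-0.0633), CD9 (-0.10), CSF1R (-0.30), LGALS3 (-0.26), LYVE1 (-1.22), LYZ (-0.0544), MRC1 (-0.26), TLR8 (-0.15), TREM2 (-0.41), TYROBP (-0.0514) and VSIG4 (-0.0533). In that scar zone fit 49.7% of all genes were positive. LGALS3 was at -0.21 in the difference between zones and in the zones of the IR pigs, also without the male IR pigs. With each pig left out in turn, CD14 lay between -0.0751 (without IR pig 11) and 0.39, LYVE1 between -0.14 (without IR pig 11) and 0.97, and TREM2 between -0.83 (without IR pig 9) and 0.63. In the border zone the test of the sexes gave 3 members and 0 adjusted, with APOE at -0.45 and CD209 at -0.0523.

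The pig as a replicate block gave 4 members for the difference between zones, 4 for the zones of the IR pigs and 0 for those of the sham pigs, so no count at this threshold changed by over 1.5 times. At a nominal p of 0.05 or less whatever the fold, the block moved the counts from 6 to 15, from 10 to 16 and from 0 to 2. At 4 pigs a group and 3 counts as the floor, members near the floor such as S100A8, S100A12 and FLT3 are measured with little precision.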
